A study of Oryza sativa with 32 samples.

Results

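The comparison set shoots of the transgenic rice line AGR3/8 against shoots of the transgenic line AGR1/7, with 4 arrays in each group and 8 of the 32 arrays of the series in all. The members were the arrays whose titles name line 3/8 or line 1/7 and shoot tissue, and wild type did not enter the test. Both lines are Oryza sativa cv. Nipponbare carrying OsANT1:HvAlaAT, in which the promoter of the rice gene OsANT1, described as root-specific, drives alanine aminotransferase from barley. The series design calls the lines independent, and both carry the construct, so the comparison is between individual transgenic lines and does not set carriers against non-carriers. All plants grew in hydroponics on 5 mM ammonium at 28 °C, 70% relative humidity, 14 h days and 10 h nights at 750 µE, and RNA was taken at mid-day at maximum tillering. The root arrays of the same lines (4 of AGR3/8 and 4 of AGR1/7) were used to test whether a difference was shared between tissues. Shoot arrays of the third line, AGR1/8, and of wild type are given as levels beside the comparison, without a test. The level of the barley transgene itself was not analysed here.

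Alanine aminotransferase moves an amino group between glutamate and pyruvate, giving alanine and 2-oxoglutarate, and so links nitrogen assimilation with carbon metabolism. In rice fed with ammonium, ammonium transporters of the AMT1 family take the ion up, and glutamine synthetase with glutamate synthase assimilates it, in the chloroplast through GLN2 and ferredoxin-dependent glutamate synthase (Fd-GOGAT). The largest differences between the lines at named genes concerned another part of plant nutrition. In grasses, iron is acquired as Fe(III) bound to phytosiderophores, whose synthesis passes through nicotianamine aminotransferase, and zinc enters through transporters of the ZIP family.

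AGR3/8 shoots had less transcript of genes for zinc transport (ZIP1, also listed as ZIP8, and ZIP4) and phytosiderophore synthesis (NAAT1) than AGR1/7 shoots. They had more of the ferric-chelate reductase gene 0sFRO1, the ammonium transporter gene AMT1 and the magnesium transporter gene MRS2-A. The largest differences fell on probe sets with no listed gene or with a LOC identifier alone, up to 5.16 on the log2 scale. In total 330 of 38129 probe sets (0.865%) were called, 174 higher (0.456%) and 156 lower (0.409%) in AGR3/8, at a Benjamini-Hochberg adjusted p under 0.05 in limma on log2(intensity + 16). A difference of at least 1 log2 was called for 87 (0.228%), 35 higher and 52 lower. Of the 330, 328 had no overlap between the 4 AGR3/8 and the 4 AGR1/7 values, a property that 7.85% of all tested probe sets shared. Called probe sets were chosen for a wide gap between the lines, so a share above 7.85% follows in part from that choice. The median difference over all tested probe sets was -0.04. In whole shoots, fewer cells of a type and less RNA per cell cannot be told apart.

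The calls stood on few arrays, and 2 AGR3/8 arrays stood apart. Mean intensity was 164, 210, 206 and 181 on AGR3/8 replicates 1 to 4, against 163, 171, 165 and 165 on AGR1/7 replicates 1 to 4. Replicates 2 and 3 of AGR3/8 also had the largest shares of the summed intensity in the brightest 1% of probe sets, 42.2% and 41.2%, while AGR1/7 arrays had 29.1% to 32%. Bright control transcripts that were added to the labelled samples moved with them. The cre control at its 3′ end read 6276 to 12780 on AGR3/8 arrays and 6176 to 6624 on AGR1/7 arrays (exact two-sided permutation test, p = 0.114, adjusted 0.228 over 12 array measures, where 0.0286 is the smallest p that 4 against 4 allows). The bioD control did not overlap between the lines, at 2447 to 3547 in AGR3/8 and 2230 to 2399 in AGR1/7 (exact permutation p = 0.0286, adjusted 0.228). The dimmer bioB control read 204 to 249 on AGR3/8 arrays and 201 to 222 on AGR1/7 arrays (exact permutation p = 0.314, adjusted 0.377). The 3′ to 5′ ratio of the GAPDH control, a sign of RNA integrity, was 2.74 to 4.4 in AGR3/8 and 2.44 to 2.92 in AGR1/7 (exact permutation p = 0.114, adjusted 0.228). It was highest on AGR3/8 replicates 2 and 3, at 4.4 and 3.76. The cyclophilin ratio was highest there too, at 3.6 and 3.06. The actin ratio was 9.12 and 12.43 on these arrays and 6.28 to 9.38 in AGR1/7. The ubiquitin ratio was 0.6 to 0.65 in AGR3/8 and 0.63 to 0.66 in AGR1/7.

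The median difference followed brightness. It was -0.1 for probe sets with a mean log2 value between 6 and 7, 0.13 between 10 and 11, 0.3 between 11 and 12 and 0.5 above 12, where no probe set was called. After quantile normalization, which gives all arrays the same distribution, those medians were -0.01, 0.02, 0.03 and 0. The numbers of calls differed little, with 341 under quantile normalization (0.894%), 197 higher and 144 lower, and 277 probe sets were called with the same sign under both scalings. Of the 53 called on the deposited scale alone, 44 were lower in AGR3/8. Where quantile normalization ended the call of a gene named below, its value on that scale is given. Without AGR3/8 replicates 2 and 3 the count fell to 26, 11 higher and 15 lower. The 328 called probe sets still tested all kept their sign, with a median size of 0.89 times that over 8 arrays. Where the groups do not overlap, as at nearly all called probe sets, leaving out arrays cannot change the sign. The kept signs therefore add no support. None of the 23 called genes with a descriptive name passed limma's test without AGR3/8 replicates 2 and 3. The lowest adjusted p among the 23 was 0.0865, for 0sFRO1.

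**Figure D1:**
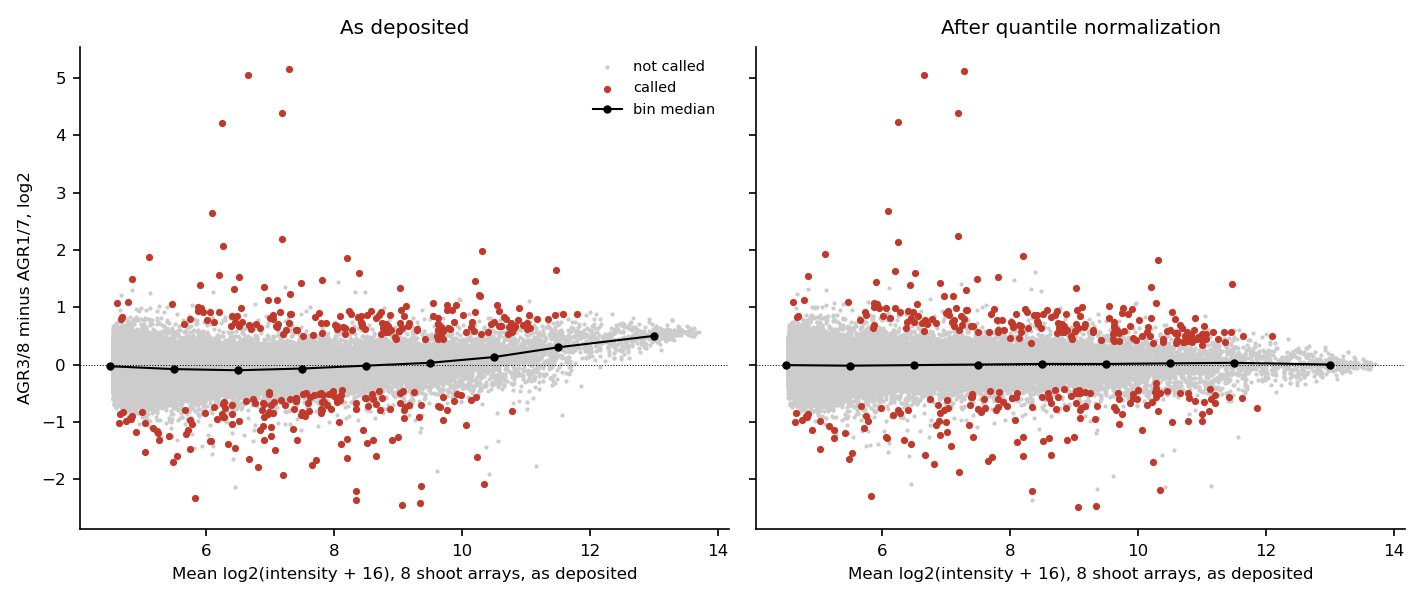
Difference between AGR3/8 and AGR1/7 shoots (log2) against mean log2(intensity + 16) for the 38129 tested probe sets, on the deposited scale and after quantile normalization. Red points passed the adjusted p of 0.05 and the black line joins the medians of bins of brightness, which climb to 0.5 at the bright end on the deposited scale and lie near 0 after quantile normalization.

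Green leaf markers were bright in both groups, and root markers were mixed. The 13 probe sets of green leaf markers, such as those of the Rubisco small subunit, Rubisco activase and chlorophyll-binding proteins, summed to 79478 to 159184 in AGR3/8 and 75056 to 89088 in AGR1/7. None of the 13 was called by limma. Of these, 6 were higher at an unadjusted p under 0.05, a level that 14.5% of all tested probe sets reached. Their differences ran from -0.31 to 0.69 over the 13 on the deposited scale, and from -0.27 to 0.15 after quantile normalization. Of 10 root marker probe sets, 5 had means under 16 in both groups, among them the silicon transporter Lsi2 and the mycorrhiza phosphate transporter Pht1;11. The rest were present in these shoots. NAS3 averaged 1534.4 in AGR3/8 and 988.1 in AGR1/7, and Lsi1 233.8 in AGR3/8 and 211.0 in AGR1/7. IRT1 averaged 73.1 in AGR3/8 and 59.4 in AGR1/7, and AMT1-2 28.7 in AGR3/8 and 20.3 in AGR1/7. The 1 root marker called was NAAT1, which was lower in AGR3/8 (760.9) than in AGR1/7 (2112.6). The summed root markers ran from 1896 to 3565 in AGR3/8 and from 2688 to 3994 in AGR1/7. No marker of young panicle (9 tested), shoot apex and dividing tissue (11), secondary wall (10) or seed (9) was called by limma (0, 3, 0 and 1 had an unadjusted p under 0.05), and 14 of 19 panicle and 20 of 26 apex probe sets had means under 16 in both groups. The summed panicle markers were 273 to 315 in AGR3/8 and 286 to 342 in AGR1/7. The summed apex markers were 7934 to 13962 in AGR3/8 and 8139 to 9072 in AGR1/7. Most of the apex sum came from HOS59 (8671.4 in AGR3/8 and 5927.2 in AGR1/7) and HOS58 (2313.1 in AGR3/8 and 2113.2 in AGR1/7). HOS59 differed by 0.5 on the deposited scale and by 0.01 after quantile normalization. Secondary wall markers summed to 758 to 842 in AGR3/8 and 716 to 967 in AGR1/7, and seed markers to 949 to 1060 in AGR3/8 and 844 to 956 in AGR1/7. Their part in the differences below was not tested.

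Among transport and nutrition genes, the zinc and iron genes differed most. ZIP4, a zinc transporter, had intensities of 86.8, 54.5, 43.7 and 63.4 in AGR3/8 shoots and 203.3, 130.7, 193.6 and 174.0 in AGR1/7 shoots. The groups did not overlap, but called genes with a descriptive name were picked from those without overlap. That property therefore adds no support for ZIP4 or for the other genes so picked below. The difference of ZIP4 was -1.31 (SE 0.17, adjusted p = 0.00291). The call held in 8 of 8 fits that left out 1 array. ZIP1 (LOC4342782, also listed as ZIP8) had 348.1, 140.0, 147.7 and 275.1 in AGR3/8 and 587.3, 638.0, 627.0 and 460.6 in AGR1/7, a difference of -1.37 (SE 0.23, adjusted p = 0.0165). Every AGR3/8 value lay under every AGR1/7 value, and the call held in 5 of 8 such fits. Without AGR3/8 replicates 2 and 3, its 2 lowest samples, the difference was -0.86 (adjusted p = 0.123). NAAT1, nicotianamine aminotransferase, read 1474.4, 384.9, 566.1 and 618.3 in AGR3/8 against 2640.0, 2103.6, 1695.6 and 2011.4 in AGR1/7. Its difference of -1.62 (SE 0.3, adjusted p = 0.0262) was the largest fall among genes with a descriptive name, but AGR3/8 replicate 1 lay near the AGR1/7 values, and the call held in 2 of 8 fits, with adjusted p up to 0.11.

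0sFRO1, spelled so in the gene table and carrying the symbol of the ferric-chelate reductase family, went the other way. It had 797.7, 889.1, 854.2 and 620.2 in AGR3/8 shoots and 333.3, 370.4, 430.9 and 388.4 in AGR1/7 shoots. Its lowest AGR3/8 value was well above its highest AGR1/7 value (difference 1.02, SE 0.12, adjusted p = 0.00146, called in 8 of 8 fits). MRS2-A belongs to a family of magnesium transporters and had 1924.0, 2941.4, 2563.8 and 2455.4 in AGR3/8 and 1387.3, 1515.5, 1388.6 and 1365.7 in AGR1/7. The rise was 0.78 (SE 0.13, adjusted p = 0.0167) on the deposited scale and 0.61 (adjusted p = 0.00145) after quantile normalization, and the call held in 5 of 8 fits. Of the 97 tested probe sets of the metals, phosphate and silicon list, 1 rose and 3 fell. Over all tested probe sets, 0.865% were called. The list's median was 0.03 beside -0.04 for all tested probe sets. Other members were not called. NAS3, which makes the phytosiderophore precursor nicotianamine, differed by 0.69 (adjusted p = 0.29), the iron transporter gene IRT1 by 0.25 (adjusted p = 0.391), the phytosiderophore exporter gene tom1 by 0.02 (adjusted p = 0.953) and ZIP3 by -0.62 (adjusted p = 0.292).

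AMT1 (LOC4336365, also listed as AMT1;1), an ammonium transporter, was the 1 member called of 16 tested in the nitrogen uptake list, beside 0.865% of all tested probe sets. It had 923.3, 1056.4, 925.0 and 927.7 in AGR3/8 shoots and 635.9, 645.3, 627.5 and 582.7 in AGR1/7 shoots. The values within each line were close and the lines did not overlap. The rise was 0.61 (SE 0.09, adjusted p = 0.00697, called in 8 of 8 fits), and wild type shoots averaged 970 ± 55.9 and AGR1/8 shoots 789 ± 85 (SD, n = 4 each). A second, dim probe set of AMT1 averaged 25.1 ± 5.16 in AGR3/8 and 15.8 ± 11.2 in AGR1/7 and was not called (0.43, adjusted p = 0.44). The remaining 14 of 16 tested probe sets of the list were not called either, with AMT1-2 at 0.29 (adjusted p = 0.472), AMT2-1 at 0.04 (adjusted p = 0.911) and the nitrate reductase gene NIA1 at 0.21 (adjusted p = 0.695).

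No member of the nitrogen assimilation and amino acid list was called by limma (0 of 42, median 0.06), on the deposited scale or after quantile normalization. At an unadjusted p under 0.05, 11 members were higher and 3 lower (33.3%, against 14.5% of all tested probe sets). Its 3 brightest genes were among those that the scaling moved most. Fd-GOGAT had 5767.4, 10120.4, 9416.3 and 7155.6 in AGR3/8 and 4881.1, 5979.3, 4933.3 and 5054.3 in AGR1/7, so the groups overlapped (0.61, adjusted p = 0.19). After quantile normalization its difference was 0.13 (adjusted p = 0.43). Other Fd-GOGAT probe sets did not overlap between the lines but were not called (0.57, adjusted p = 0.143, and 0.44, adjusted p = 0.0988). GLN2, plastid glutamine synthetase, had 4564.8, 8995.9, 8572.5 and 6408.2 in AGR3/8 and 4452.4, 5287.2, 4311.1 and 4501.7 in AGR1/7. Its difference was 0.57 (adjusted p = 0.239) on the deposited scale and 0.13 (adjusted p = 0.433) after quantile normalization. ARD' 4, an acireductone dioxygenase of methionine salvage, differed by 0.7 (adjusted p = 0.103) and 0.24 (adjusted p = 0.178) on these scales. In each of these genes the 2 highest values belonged to AGR3/8 replicates 2 and 3. The cytosolic glutamine synthetase gene GLN1-1 differed by 0.12 (adjusted p = 0.727).

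**Figure D2:**
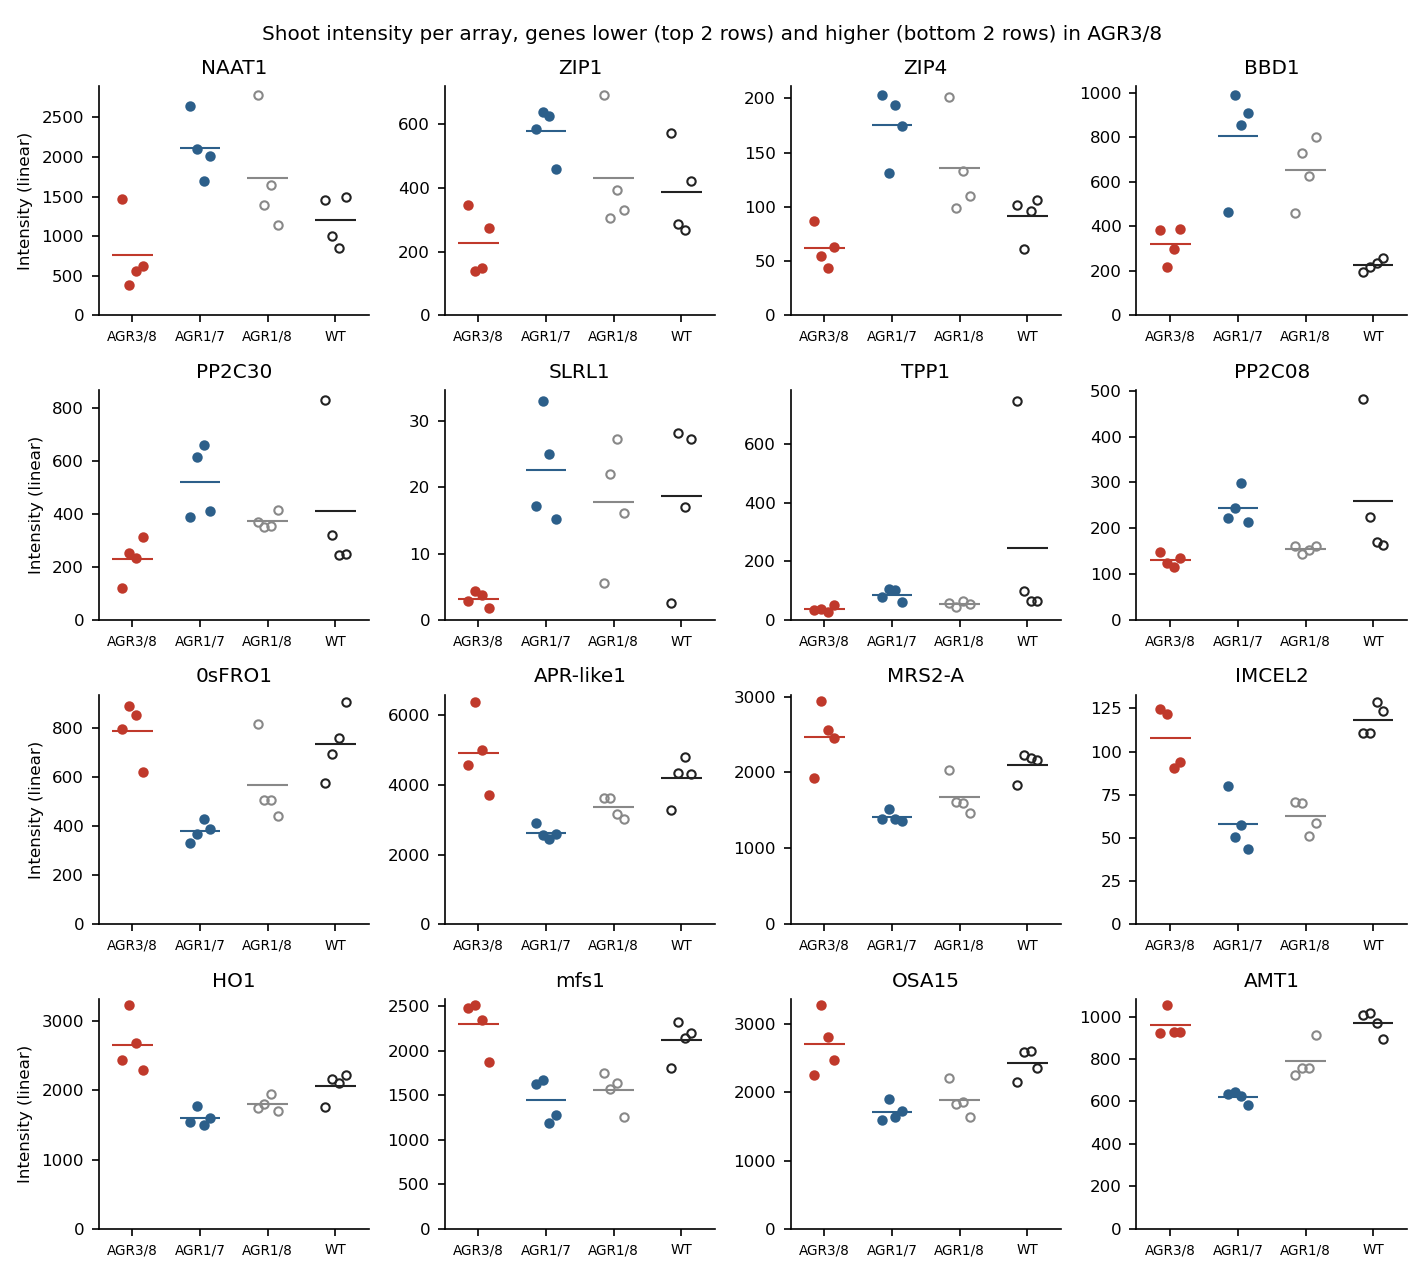
Intensity (linear scale from 0) of 16 named genes on each shoot array, 8 genes that fell (top) and 8 that rose (bottom) in AGR3/8 against AGR1/7. Filled points are the tested groups, open points are AGR1/8 and wild type shoots, and bars are group means. AMT1 lies between 923.3 and 1056.4 in AGR3/8 and between 582.7 and 645.3 in AGR1/7.

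Genes with a descriptive name numbered 23 among the 211 called genes, 10 higher and 13 lower. PP2C08 and PP2C30, type 2C protein phosphatases of the kind that act in abscisic acid signalling, were both lower. PP2C08 had 148.0, 124.1, 116.3 and 135.2 in AGR3/8 and 223.3, 244.0, 299.5 and 214.3 in AGR1/7, with no overlap (-0.82, SE 0.12, adjusted p = 0.00528, called in 8 of 8 fits). PP2C30 averaged 230 ± 79.8 in AGR3/8 and 519 ± 139 in AGR1/7 (-1.15, adjusted p = 0.0416). It was called in 3 of 8 fits and had an adjusted p of 0.0666 after quantile normalization. These were the 2 called members of 98 in the abscisic acid and dehydration list, whose median was -0.06. Over all tested probe sets, 0.865% were called. CIPK10, a kinase that is activated by calcineurin B-like calcium sensors, had 674.0, 626.5, 682.0 and 713.0 in AGR3/8 and 1008.5, 934.7, 1063.1 and 992.1 in AGR1/7. These ranges lay far apart for their spread (-0.56, SE 0.09, adjusted p = 0.0126), and the call held in 6 of 8 fits, with adjusted p up to 0.0656. CIPK10 probe sets made up all 3 calls among the 101 of the calcium list (-0.56, -0.52 and -0.49). The calls at -0.52 and -0.49 each held in 2 of 8 fits. Another CIPK10 probe set differed by 0.1 (adjusted p = 0.771).

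Trehalose 6-phosphate phosphatases, which remove the signalling sugar trehalose 6-phosphate, moved in opposite directions. TPP7 rose, with 521.8, 498.3, 675.2 and 594.8 in AGR3/8 and 381.3, 338.2, 343.7 and 422.7 in AGR1/7 (0.6, SE 0.11, adjusted p = 0.0285). TPP1 fell, with 32.2, 38.9, 26.0 and 50.2 in AGR3/8 and 79.7, 103.9, 101.4 and 60.8 in AGR1/7 (-0.95, SE 0.18, adjusted p = 0.0302). Neither gene's values overlapped between the lines, and each was called in 3 of 8 fits. They were the only called members of 81 in the sugar and starch list (median -0.02), beside 0.865% called of all tested probe sets. The glutaredoxin gene GRXS9 had 416.0, 323.8, 316.1 and 324.8 in AGR3/8 and 691.4, 611.5, 581.9 and 518.2 in AGR1/7. It fell by 0.77 (SE 0.11, adjusted p = 0.00661, called in 8 of 8 fits) and was the 1 call among 161 heat shock and redox probe sets.

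HOX4, a homeodomain-leucine zipper factor, was the 1 call among 227 transcription factor probe sets, beside 0.865% called of all tested probe sets. It averaged 410 ± 37.8 in AGR3/8 and 705 ± 115 in AGR1/7 (-0.75, SE 0.12, adjusted p = 0.0125, called in 6 of 8 fits). SLRL1, which resembles the gibberellin repressor SLR1, averaged 3.17 ± 1.11 in AGR3/8 and 22.6 ± 8.14 in AGR1/7 (-0.99, adjusted p = 0.031), so it lay near the dim end of the array in AGR1/7 and below 16 in every AGR3/8 sample. BBD1, a bifunctional nuclease known from basal defence in Arabidopsis, had 382.5, 218.3, 296.5 and 387.8 in AGR3/8 and 466.5, 990.5, 857.2 and 909.2 in AGR1/7 (-1.26, SE 0.22, adjusted p = 0.0193). AGR1/7 replicate 1 lay far below the other AGR1/7 samples, and the call held in 4 of 8 fits. Cht10, a chitinase, averaged 145 ± 11 in AGR3/8 and 211 ± 17.8 in AGR1/7 (-0.5, adjusted p = 0.0364) and was the 1 call among 37 defence probe sets. MRL7, needed for chloroplast development in Arabidopsis, fell by 0.63 (adjusted p = 0.0344). Cht10 and MRL7 were each called in 2 of 8 fits, and Cht10 had an adjusted p of 0.0666 after quantile normalization.

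Of the remaining named genes that rose, all but IMCEL2 were bright. HO1, a heme oxygenase that makes the chromophore precursor of phytochrome, averaged 2656 ± 406 in AGR3/8 and 1599 ± 123 in AGR1/7. Its rise was 0.72 (adjusted p = 0.0236) on the deposited scale and 0.53 (adjusted p = 0.0099) after quantile normalization. PSAG, a subunit of photosystem I that the gene table lists as OSA15, averaged 2703 ± 446 in AGR3/8 and 1716 ± 133 in AGR1/7 (0.64, adjusted p = 0.0455, and 0.45, adjusted p = 0.012, after quantile normalization). A dim second probe set of OSA15 did not differ in its means (58.5 ± 12.7 in AGR3/8 and 58.9 ± 15.7 in AGR1/7). SPO11-3, a subunit of DNA topoisomerase VI, averaged 1426 ± 173 in AGR3/8 and 939 ± 66.6 in AGR1/7 (0.59, adjusted p = 0.0277, and 0.5, adjusted p = 0.0145). APR-like1, related to the sulfate-assimilating enzyme APS reductase, averaged 4907 ± 1115 in AGR3/8 and 2622 ± 200 in AGR1/7 (0.88, adjusted p = 0.0302). It was no longer called after quantile normalization (0.55, adjusted p = 0.0875), and other APR-like1 probe sets were not called at 0.67 (adjusted p = 0.0766) and 0.29 (adjusted p = 0.623). The gene mfs1 differed by 0.67 (adjusted p = 0.0485) on the deposited scale and by 0.52 (adjusted p = 0.105) after quantile normalization, where it was not called. IMCEL2, named for a methylesterase of prenylated proteins, averaged 108 ± 17.9 in AGR3/8 and 58 ± 15.8 in AGR1/7 (0.75, adjusted p = 0.0497), while a dim second probe set of IMCEL2 was not called (0.13, adjusted p = 0.788). Of these 6, HO1 was called in 3 of 8 fits and the other members in 2.

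Leaving out 1 array changed the number of calls in both directions. The count was 811 without AGR3/8 replicate 1 and 547 without AGR3/8 replicate 4, but 94 without AGR3/8 replicate 2 and 103 without AGR3/8 replicate 3. Without AGR1/7 replicates 1, 2, 3 and 4 it was 181, 200, 99 and 229. In all 8 of these fits 80 probe sets were called, 40 higher and 40 lower. Among the genes above these were ZIP4, PP2C08, GRXS9, 0sFRO1 and AMT1. Calls of named probe sets were lost most often without AGR1/7 replicate 3 (27 calls), AGR3/8 replicate 3 (25) and AGR3/8 replicate 2 (24), and least often without AGR3/8 replicates 1 (2) and 4 (1).

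**Figure D3:**
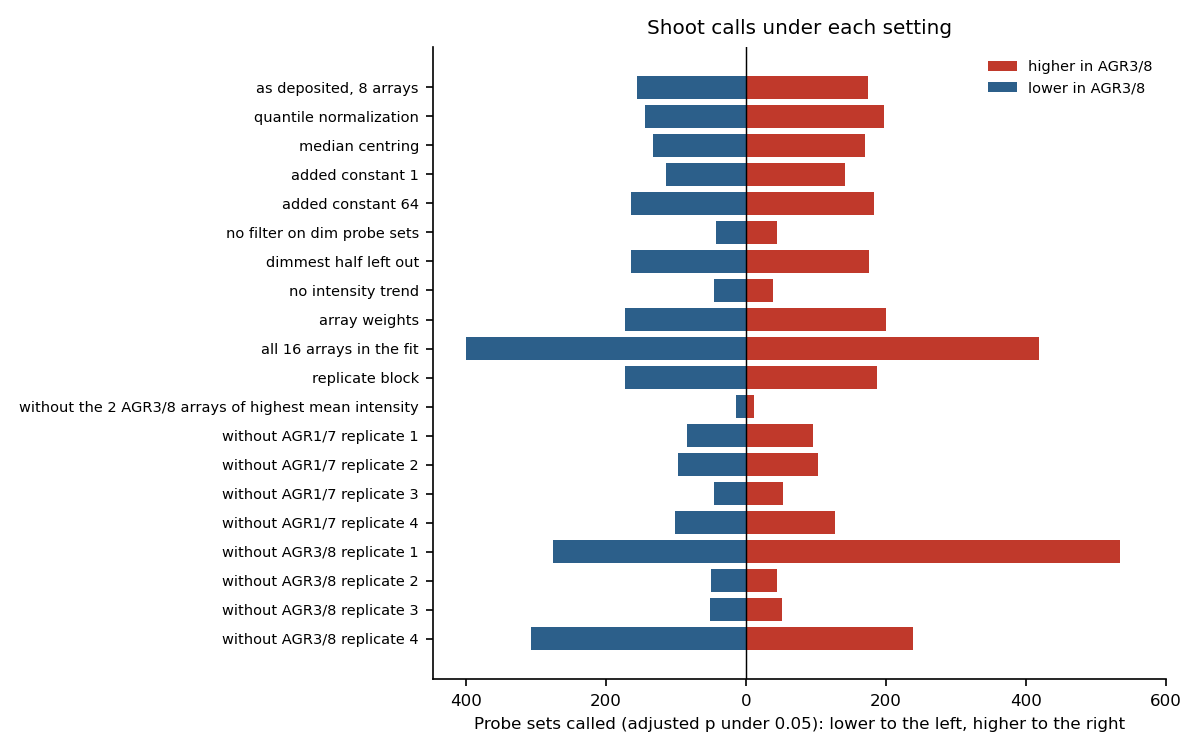
Probe sets called between AGR3/8 and AGR1/7 shoots under each setting, lower in AGR3/8 to the left of 0 and higher to the right. The deposited scale with 8 arrays gives 174 higher and 156 lower, and leaving out single arrays moves the total between 94 and 811.

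For most gene lists no member was called, and the medians lay near that of all tested probe sets (-0.04). Over all tested probe sets, 0.865% were called. No call fell in the lists for glycolysis and fermentation (28 tested), clock and flowering (23), cell wall (115), phenylpropanoids and flavonoids (35), auxin, cytokinin and gibberellin (112), jasmonate and ethylene (47), cell cycle (79), potassium, sodium and water channels (59) or diterpenoid and isoprenoid precursors (26). Their medians ran from -0.13 for phenylpropanoids to 0.06 for glycolysis, and 10.1% (cell cycle) to 23.1% (diterpenoid) of their probe sets had an unadjusted p under 0.05 in limma. In the photosynthesis list the 1 call of 32 was PSAG, and the median was 0.1 on the deposited scale and -0.03 after quantile normalization. LHCP, a chlorophyll-binding protein gene, averaged 13866 ± 4340 in AGR3/8 and 8713 ± 724 in AGR1/7 and differed by 0.62 on the deposited scale (adjusted p = 0.279) and by 0.05 after quantile normalization (adjusted p = 0.794).

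The ribosomal protein list had the lowest median of the 20 lists, with no call in limma. At an unadjusted p under 0.05, 14 of the list's 33 members were lower and 0 higher (42.4%, against 14.5% of all tested probe sets either way). Its median was -0.22 on the deposited scale, -0.38 after quantile normalization and -0.23 without AGR3/8 replicates 2 and 3, and 2 of 33 differences were above 0. The largest fitted difference was that of RPL11, at -0.69 (adjusted p = 0.0792), with 997 ± 195 in AGR3/8 and 1621 ± 335 in AGR1/7. Quantile normalization called 3 of the 33 lower, among them RPL11 at -0.81 (adjusted p = 0.0499) and RPL9 at -0.63 (adjusted p = 0.0466). These genes encode structural proteins of the ribosome. Their median intensity was 1175, in a range of brightness where all tested probe sets had a median difference of 0.13.

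**Figure D4:**
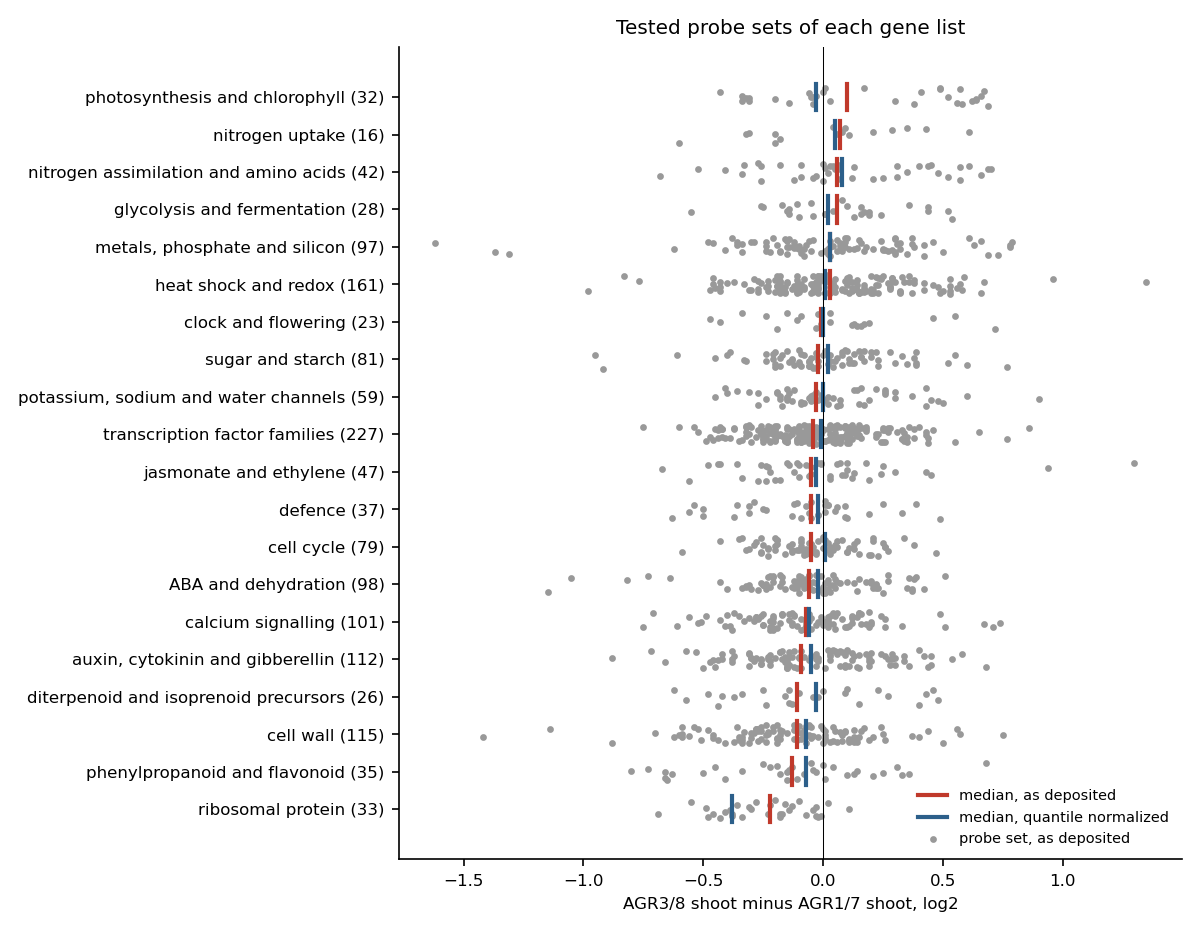
Difference between AGR3/8 and AGR1/7 shoots (log2) for each tested probe set of the 20 gene lists, with the number tested in parentheses. Red bars are list medians on the deposited scale and blue bars medians after quantile normalization. The ribosomal protein list lies lowest on both, at -0.22 and -0.38.

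The largest rises fell on probe sets that were dim in AGR1/7 shoots, with Os.40325.1.A1_at the brightest of them there. Os.55261.1.S1_at, with no listed gene, had 972.4, 1470.5, 749.5 and 657.6 in AGR3/8 shoots and 15.6, 9.0, 4.1 and 13.1 in AGR1/7 shoots (5.16, SE 0.22, adjusted p = 5.73e-08). AGR1/8 shoots averaged 164 ± 96.3 and wild type shoots 23.9 ± 8.89. Os.20851.1.A1_at, also with no listed gene, had 466.5, 371.2, 613.2 and 971.2 in AGR3/8 and 0.6, 0.4, 0.4 and 5.1 in AGR1/7 (5.06, SE 0.23, adjusted p = 1.16e-07). AGR1/8 and wild type were as dim as AGR1/7, at 1.38 ± 0.746 and 2.88 ± 2.51. A second probe set from the same cluster, Os.20851.1.A1_x_at, differed by 4.39. Os.7544.1.S1_at had 373.5, 310.0, 265.6 and 308.6 in AGR3/8 and 1.4, 1.8, 3.0 and 0.6 in AGR1/7 (4.21, SE 0.14, adjusted p = 4.02e-09). Its wild type values spread widely, at 81.6 ± 74.1. Then came LOC4340325 with 2.64 (155 ± 20.1 in AGR3/8 and 11.8 ± 6.08 in AGR1/7) and Os.40325.1.A1_at with 2.19 (307 ± 96.6 in AGR3/8 and 53.1 ± 12 in AGR1/7). All 6 were called in 8 of 8 fits that left out an array. Where AGR1/7 values lay near 0, the size of a difference depends on the constant of 16 added before the logarithm. A second probe set of LOC4340325 did not share the difference (-0.03, adjusted p = 0.958).

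Among the largest falls, LOC4340240 was lower in AGR3/8 on 2 probe sets. Os.4198.1.S1_x_at had 187.3, 238.5, 182.2 and 257.7 in AGR3/8 shoots and 1135.4, 1236.0, 1477.5 and 1161.8 in AGR1/7 shoots (-2.45, SE 0.13, adjusted p = 3.8e-07), and Os.4198.1.S1_at differed by -2.42. AGR1/7 stood alone, since wild type shoots averaged 291 ± 47 and AGR1/8 shoots 285 ± 15.6. OsAffx.26649.1.S1_x_at, with no listed gene, had 15.9, 1.4, 1.7 and 25.8 in AGR3/8 and 129.6, 122.6, 147.3 and 63.4 in AGR1/7 (-2.33, SE 0.29, adjusted p = 0.00239). LOC4352177 varied widely within AGR3/8, at 101.7, 249.8, 297.3 and 989.8 against 1371.5, 1170.1, 1642.3 and 1283.4 in AGR1/7 (-2.12, SE 0.44, adjusted p = 0.0447). It was called in 2 of 8 fits and had an adjusted p of 0.0521 after quantile normalization.

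LOC4331398 divided the AGR3/8 samples. Its probe set Os.8823.1.S1_at had 80.0, 356.9, 262.7 and 26.3 in AGR3/8 shoots and 673.7, 745.6, 708.6 and 774.4 in AGR1/7 shoots (-2.37, SE 0.49, adjusted p = 0.0447). Wild type shoots were near the floor at 5.7 ± 4.29 and AGR1/8 shoots at 842 ± 59.6. In roots the same AGR3/8 replicate numbers were high and low, with 117.1, 1392.8, 1498.4 and 80.1 in AGR3/8 and 2606.7, 2716.5, 2312.0 and 2370.7 in AGR1/7, and the root difference was not called (-2.63, adjusted p = 0.157). Replicates 2 and 3 were thus the higher AGR3/8 samples in both tissues. Without them the shoot difference was -3.54 (adjusted p = 0.000531). The second probe set, Os.43929.1.S1_s_at, gave -2.21 (adjusted p = 0.0269). It was called in 4 of 8 fits and the first in 2 of 8, and after quantile normalization the first had an adjusted p of 0.0606.

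The AGR1/8 shoot mean fell between the AGR3/8 and AGR1/7 means at 291 of 330 called probe sets (88.2%), and the wild type mean at 226 (68.5%). Called probe sets were chosen for a wide gap between the AGR3/8 and AGR1/7 means, so a further mean falls between them more readily than at other probe sets. The wild type mean was nearer to AGR3/8 at 199 of the 330 (60.3%, against 47.6% of all tested), and the AGR1/8 mean at 114 (34.5%, against 45.1%). These are counts of group means and were not tested. Wild type replicate 1 pulled the wild type mean at some genes, with TPP1 at 747.4 against 99.9, 65.4 and 65.0 in replicates 2 to 4. PP2C30 likewise had 829.7 against 319.3, 244.6 and 250.4. Examples of wild type near AGR3/8 were 0sFRO1, at 734 ± 138 beside 790 ± 119 in AGR3/8 and 381 ± 40.5 in AGR1/7, and CIPK10, at 684 ± 110 beside 674 ± 35.8 in AGR3/8 and 1000 ± 52.9 in AGR1/7. For NAAT1, wild type at 1203 ± 320 lay between 761 ± 486 in AGR3/8 and 2113 ± 393 in AGR1/7, and for ZIP1, wild type at 388 ± 141 lay between 228 ± 101 in AGR3/8 and 578 ± 81.4 in AGR1/7.

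The same lines were compared in root. There 630 of 38129 probe sets were called (1.65%), 278 higher (0.729%) and 352 lower (0.923%) in AGR3/8. Both tissues had a call for 36 probe sets, of which 32 had the same sign, 19 higher and 13 lower. Those 32 are 9.7% of the shoot calls and 5.08% of the root calls. Of the 330 shoot calls, 297 were tested in root, where the median difference was 0.02 for those higher in shoot and -0.07 for those lower, beside 0.02 for all root probe sets. The difference between the tissues was itself tested over 42285 probe sets and called for 315 (0.745%). Of the 330 shoot calls, 81 had such a tissue difference. The shoot arrays that chose these 330 also enter the tissue difference, so a share above 0.745% follows in part from that choice. The root count ranged from 92 without AGR3/8 root replicate 2 to 2593 without AGR1/7 root replicate 1, and the count of tissue differences from 87 without AGR3/8 root replicate 3 to 752 without AGR1/7 root replicate 1.

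Os.20851.1.A1_at was high in AGR3/8 in both tissues, with a root mean of 318 ± 67.9 in AGR3/8 and 0.8 ± 0.183 in AGR1/7 (root difference 4.29, adjusted p = 3.99e-07, tissue difference 0.77, adjusted p = 0.234). Os.7544.1.S1_at was higher in AGR3/8 in root too, by 1.37 (adjusted p = 0.00438), less than in shoot (tissue difference 2.84, adjusted p = 7.46e-07), and Os.40325.1.A1_at by 1.43 (adjusted p = 0.000642). LOC4340325 differed more in root (4.07) than in shoot (2.64), and the tissue difference of -1.44 was called (adjusted p = 0.00276). TPP7 rose in both tissues and was the 1 gene with a descriptive name among the 32, with root means of 111 ± 21.9 in AGR3/8 and 52.8 ± 11.5 in AGR1/7 (0.88, adjusted p = 0.0291). LOC4344267 was lower in AGR3/8 on 2 probe sets in both tissues, by -1.39 in shoot and -2.48 in root on Os.27104.1.S2_at (tissue difference 1.09, adjusted p = 0.00113), and LOC9268613 by -1.7 in shoot and -1.12 in root on Os.20614.1.S1_at. On Os.20614.3.S1_x_at, LOC9268613 differed by -0.87 in shoot and -2.31 in root (tissue difference 1.44, adjusted p = 0.0107), so its probe sets disagreed on the tissue with the larger difference. In contrast, Os.55261.1.S1_at averaged 9.62 ± 2.59 in AGR3/8 roots and 2.88 ± 2.21 in AGR1/7 roots, both below 16. It did not pass the filter in root, so its tissue difference of 4.72 (SE 0.29, adjusted p = 9.74e-08) restates the shoot difference. LOC4340240 differed by 0.13 in root (adjusted p = 0.668), where AGR3/8 averaged 296 ± 3.39 and AGR1/7 273 ± 43.8, with a tissue difference of -2.58 (adjusted p = 3.12e-07). NAAT1 and ZIP4 were not called in root, at -0.02 (adjusted p = 0.991) and -0.12 (adjusted p = 0.921), but their tissue differences did not pass the test (adjusted p = 0.186 and 0.199). For both genes AGR1/7 root replicate 1 lay far below the other AGR1/7 roots. NAAT1 had 520.9, 1729.0, 2549.8 and 2432.4 in AGR1/7 roots, beside 1536 ± 241 in AGR3/8 roots. ZIP4 had 267.5, 815.1, 992.6 and 1101.3, beside 654 ± 120. These root differences therefore rest heavily on that array.

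The largest tissue differences also included genes with no shoot call. LOC4351147 was under 16 on every array of both shoot groups, at 5.4 ± 3.79 in AGR3/8 and 9.65 ± 5.26 in AGR1/7, while its roots averaged 48.6 ± 31.4 in AGR3/8 and 634 ± 393 in AGR1/7 (tissue difference 2.98, adjusted p = 0.0155). OsAffx.4743.1.S1_at had a like pattern (2.7, adjusted p = 0.0155), with roots at 58.8 ± 30.7 in AGR3/8 and 429 ± 261 in AGR1/7. Neither LOC4351147 nor OsAffx.4743.1.S1_at was tested in shoot, and their tissue differences restate the root differences. LOC4340877 rose in root on Os.49281.1.S1_at (2.63, adjusted p = 0.0132), and in shoot differed by -0.08 (adjusted p = 0.939, tissue difference -2.7, adjusted p = 0.0193). Another LOC4340877 probe set, Os.49281.1.S1_s_at, did not share this. Its roots averaged 5.0 ± 2.29 in AGR3/8 and 4.83 ± 2.83 in AGR1/7 and did not pass the filter (tissue difference 0.18, adjusted p = 0.799). Of the 4 probe sets called in opposite directions, all rose in shoot and fell in root. LOC4326030 averaged 965 ± 46.3 in AGR3/8 and 704 ± 40.3 in AGR1/7 in shoot (0.45, adjusted p = 0.0376) and fell by 0.66 in root (adjusted p = 0.0159). LOC4339966 differed by 0.6 in shoot and -1.03 in root, LOC4327292 by 0.88 and -0.93, and OsAffx.27508.42.S1_s_at, with no listed gene, by 0.92 and -0.64. These shoot calls were weakly held, in 1 (LOC4326030), 3 (LOC4339966), 3 (LOC4327292) and 2 (OsAffx.27508.42.S1_s_at) of 8 fits that left out a shoot array, and after quantile normalization LOC4327292 was not called in shoot (0.6, adjusted p = 0.176).

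**Figure D5:**
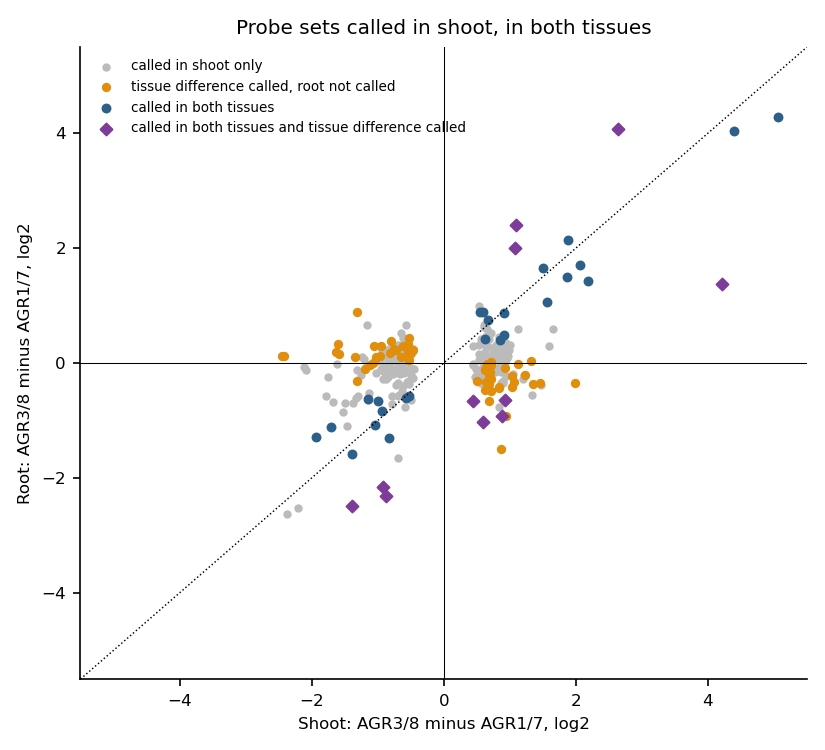
Root difference against shoot difference (AGR3/8 minus AGR1/7, log2) for the 297 probe sets called in shoot and tested in root. Blue points and purple diamonds were called in both tissues, orange points and purple diamonds had a called tissue difference, and the dotted line marks equal differences. Most grey and orange points lie near 0 in root, and 32 points called in both tissues share their sign.

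Some called genes were neighbours. In the gene order of the reference table, 211 of 16015 ordered genes with a tested probe set were called (1.32%), and 19 of them (9%) lay next to another called gene, in 8 pairs and 1 run of 3. The run held LOC4330083 at -0.68, LOC4330084 at 0.45 and LOC4330086 at -0.52, so its members did not share a sign. Each was called in 2 of 8 fits, and LOC4330086 was not called after quantile normalization (adjusted p = 0.0665). The pair with the largest differences was LOC4340240 at -2.45 and LOC4340241 at -0.77 (234 ± 23 in AGR3/8 and 410 ± 39.8 in AGR1/7, adjusted p = 0.00291, called in 8 of 8 fits). LOC4340241 resembled its neighbour in that wild type averaged 260 ± 15.9 and AGR1/8 286 ± 16.7. LOC4336795 and LOC4336796 were lower by -1.6 (224 ± 77.6 in AGR3/8 and 700 ± 180 in AGR1/7, adjusted p = 0.00465) and by -0.88 (116 ± 11.4 in AGR3/8 and 234 ± 70.7 in AGR1/7, adjusted p = 0.0331). LOC4336795 was called in 8 of 8 fits and LOC4336796 in 3 of 8, and LOC4336796 had an adjusted p of 0.0585 after quantile normalization. The sign was shared in 6 of the 9 groups of neighbours. Whether called genes lay side by side more often than scattered calls would was not tested.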

How the data were processed

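Biotin-labelled total RNA was read on 1-channel rice arrays, per the labels, whose control probe sets carry Affymetrix names. The deposited table gives an intensity for each probe set and array on a linear scale, and the values have the same trimmed mean on every array. No source used here names the software or settings behind it. Precision is limited by the number of arrays. The labels call the replicates biological, and p-values measure the spread between these samples. Here intensity was transformed as log2(intensity + 16), since the deposited values were not on a log2 scale. Of 57381 probe sets, 187 controls (64 for reporter sequences) and then the dimmest 33.3% were left out. limma 3.58.1 in R 4.3.3 (lmFit, and eBayes with an intensity trend) fitted the 8 shoot arrays, the 8 root arrays and, for the tissue difference, all 16 together, keeping probe sets that passed the filter in either tissue. P values were adjusted by Benjamini-Hochberg. Errors are SE of the fit or SD over 4 arrays. On simulated data the shoot test recovered 6%, 48%, 92% and 98% of 50 changed probe sets at 0.5, 1, 1.5 and 2 log2 (38129 probe sets, 8 false calls). The simulated noise was normal and independent between probe sets and arrays. It held no shift shared across an array, so it does not give the error rate under such shifts.

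The array's annotation gave 1 gene for 22436 probe sets, several for 95 and none for 34663, and 3191 probe sets had a descriptive name or synonym in the table of rice assembly ASM3414082v1, which was used for names and gene order alone. Names were the 12 higher and 12 lower non-overlapping genes with descriptive names and the largest differences, the 6 largest either way, up to 4 called members per list, the 3 brightest of a nitrogen list with no call, the 5 largest tissue differences and shared differences, and the 3 longest runs of neighbours. The groups, members and lists were chosen with earlier results of these data known. LOC4344267, LOC9268613, the 4 probe sets of opposite sign, and the uncalled members of lists were named after their values were seen. Same-numbered arrays of AGR3/8 and AGR1/7 did not pair (correlations of deviations -0.048 to 0.073 in shoot and -0.155 to -0.009 in root). Nor did same-numbered shoot and root arrays of a line (-0.036 to 0.032), which the fit for the tissue difference treated as independent. LOC4331398 in AGR3/8 did follow replicate number in both tissues, and whether same-numbered shoots and roots came from the same plants was not tested. Alternatives were scalings, added constants, filters, arrays in the fit and left-out arrays.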

Additional observations from a re-analysis of the deposited data

Results flagged for a closer look

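A reporter control probe set, left out of the tests, averaged 3291 in AGR3/8 shoots and 3835 in AGR1/7 shoots, while wild type shoots read 0.5, 1.7, 1.2 and 99.6. It read 2529.4, 4419.3, 3281.4 and 2933.7 in AGR3/8 and 4231.4, 3625.3, 4067.7 and 3417.0 in AGR1/7, so the lines overlapped (exact permutation p = 0.286, adjusted 0.377).

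A single sample lay far from the other 3 of its group in 4 cases, by Dixon's test at 95%, which chance meets in about 1 in 20 groups. These were MRS2-A in AGR1/7 replicate 2 (1515.5), AMT1 in AGR3/8 replicate 2 (1056.4), GRXS9 in AGR3/8 replicate 1 (416.0) and Os.20851.1.A1_at in AGR1/7 replicate 4 (5.1).

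The difference between the lines differed between shoot and root in limma's test of the tissue difference. It was more positive in shoot for Os.55261.1.S1_at (4.72), LOC4351147 (2.98), Os.7544.1.S1_at (2.84), OsAffx.4743.1.S1_at (2.7), LOC4327292 (1.81), LOC4339966 (1.62), OsAffx.27508.42.S1_s_at (1.56), LOC4326030 (1.11) and ARD' 4 (1.09). It was more negative in shoot for LOC4340877 (-2.7 on Os.49281.1.S1_at alone), LOC4340240 (-2.58 and -2.55 on its probe sets), OsAffx.26649.1.S1_x_at (-2.3), LOC4336795 (-1.94), LOC4340325 (-1.44), PP2C08 (-0.99) and LOC4330086 (-0.96). Os.55261.1.S1_at and OsAffx.26649.1.S1_x_at did not pass the filter on dim probe sets in root, and LOC4351147 and OsAffx.4743.1.S1_at did not in shoot, so their values restate the difference in the other tissue.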

How the results depend on the processing

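The shoot count of 330 became 87 with no filter on dim probe sets, 84 with no intensity trend, 819 with all 16 shoot arrays in the fit, 26 without the 2 AGR3/8 arrays of highest mean intensity and 27 without them after quantile normalization (a combination chosen after seeing the data). It stayed within 1.5 times the main count under quantile normalization (341), median centring (303), added constants of 1 (256) and 64 (348), a stricter filter on dim probe sets (341), array weights (373) and the replicate block (360). The count of at least 1 log2 (87) became 44 with an added constant of 64, 48 with no filter, 55 with no trend and 25 without the 2 arrays on either scale. Members called over all lists (16) became 5, 2 and 47 with no filter, no trend and all 16 arrays, and 0 without the 2 arrays on either scale. In root, 630 became 332 with no filter and 51 with the replicate block. The count of tissue differences (315) became 177 with no filter and 545 with a constant of 64, and calls shared by both tissues (32) became 21 with no filter and 19 with the block. Leaving out 1 array gave 94 to 811 shoot calls, 52 to 144 of at least 1 log2, 92 to 2593 root calls, 87 to 752 tissue differences, 21 to 63 shared calls and 4 to 65 list members. No named shoot call changed sign, which leaving out arrays cannot bring about where the groups do not overlap. The uncalled LOC4340877 ranged from -0.27 to 0.15 when 1 array was left out (0.11 without AGR1/7 replicate 1 and 0.15 without AGR3/8 replicate 4). Quantile normalization ended 8 of the calls of named probe sets and moved the medians of 2 lists by more than their spread over arrays. Numbers do not pair the arrays, so the block is given for counts only. The cause of these changes was not tested. With 4 arrays a group, the simulated recovery of 6% at 0.5 log2 limits what small differences can show.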
